A study of Mus musculus with 8 samples.

Results

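The genes described here are 10 genes that immature T cells of the thymus use, measured in lung RNA: Rag1, Rag2, Dntt, Ptcra, Arpp21, Cd4, Cd8a, Cd8b1, Tcf7 and Themis. They were picked by symbol from the 23469 genes of the count table to ask whether thymus tissue lies in a pool of lungs. All 10 were found through their Entrez identifiers. The choice was made with the values of the PBS-treated groups known, so that the difference between PBS-treated genotypes is given below as a description and carries no test.

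Wild type lungs were compared with DDAH1-transgenic lungs after PBS or house dust mite extract (HDM). The wild type mice were C57BL/6, and the DDAH1-transgenic mice carry an added copy of the gene for dimethylarginine dimethylaminohydrolase 1, an enzyme that breaks down the nitric oxide synthase inhibitor ADMA. The promoter of the transgene, the origin of its sequence, and the age and sex of the mice are not given in the sources used here. HDM-treated mice received 100 µg HDM in 50 µl of PBS into the trachea, 3 times per week for 3 weeks, and PBS-treated mice received 50 µl of PBS alone on the same schedule. By the paper's methods, the airway response to methacholine was measured 24 hours after the last treatment. Blood, lavage samples and lungs were taken after it. The 4 groups were therefore PBS-treated wild type, HDM-treated wild type, PBS-treated DDAH1-transgenic and HDM-treated DDAH1-transgenic mice. RNA of 4 mice per group was pooled and sequenced as 2 libraries, 8 in all. Each SD and each test below covers the spread between libraries of a pool and no spread between mice.

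T cell precursors enter the thymus without an antigen receptor and build it there. RAG1 and RAG2 cut the receptor gene segments, terminal deoxynucleotidyl transferase (Dntt) adds bases at the joints, and the pre-T cell receptor alpha chain (Ptcra) tests the first finished chain. Thymocytes then display CD4 and CD8 together before they keep only one of them and leave. RAG and Dntt are also active in early B cells of the bone marrow, and mature T cells of the lung use Cd4, Cd8a, Cd8b1, Tcf7 and Themis but have switched off Rag1, Rag2, Dntt and Ptcra. Thymocytes lie among thymic epithelial cells, whose own genes include Foxn1, Psmb11, Prss16, Ccl25, Tbata and Aire. The thymus sits in the chest next to the lungs.

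Total counts lay between 5694928 and 11929374 per library, with replicate 1 of HDM-treated DDAH1-transgenic mice the lowest. The 45S ribosomal RNA precursor Rn45S took 8.58% to 21.8% of them. Libraries of the same pool differed by more than sampling noise (mean chi-square per gene between 13.1 and 28.1) and were kept apart. The targeted gene Ddah1 had 475 and 420 counts in PBS-treated wild type, 771 and 509 in PBS-treated DDAH1-transgenic, 482 and 445 in HDM-treated wild type and 233 and 431 in HDM-treated DDAH1-transgenic libraries. Ddah1 was therefore not higher in the libraries labelled HDM-treated DDAH1-transgenic, and directions drawn from them rest on their labels as given. Xist, made from an inactive X chromosome, had 113 to 197 counts in PBS-treated and 20303 to 31372 in HDM-treated libraries, and the Y-linked gene Ddx3y had 621 to 719 and 2 to 3. By these genes, the PBS-treated pools read as male and the HDM-treated pools as female, in both genotypes. A difference between HDM and PBS therefore cannot be told apart from a difference between the sexes, or from what else differed between these mice.

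Promoter sequence shows what the genes of the receptor-building step share by sequence, beside the counts given next. Of the 10 genes, 8 had a promoter window in the RefSeq table for GRCm38.p6, and 5 had a single one. The 250 bases before the start site are printed for Rag1, Rag2 and Dntt, whose counts moved together over the libraries, and for Ptcra, whose counts did not. Each runs 5′ to 3′ on the gene's own strand, and capitals mark a match to CAGCTG or CAGGTG (E-boxes, read by E proteins such as E2A) or to CAGGAA (an ETS motif), on either strand.
Rag1 (chr2:101649533-101649782, minus strand): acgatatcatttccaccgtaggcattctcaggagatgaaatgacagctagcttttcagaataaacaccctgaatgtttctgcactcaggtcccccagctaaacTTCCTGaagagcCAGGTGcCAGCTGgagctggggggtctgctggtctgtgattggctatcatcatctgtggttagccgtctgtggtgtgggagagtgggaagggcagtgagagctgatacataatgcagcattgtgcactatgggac
Rag2 (chr2:101624462-101624711, plus strand): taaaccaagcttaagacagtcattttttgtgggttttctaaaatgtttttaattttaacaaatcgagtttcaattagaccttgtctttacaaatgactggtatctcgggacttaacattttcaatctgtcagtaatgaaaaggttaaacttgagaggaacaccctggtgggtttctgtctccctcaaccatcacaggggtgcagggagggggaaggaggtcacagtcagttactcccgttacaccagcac
Dntt (chr19:41029025-41029274, plus strand): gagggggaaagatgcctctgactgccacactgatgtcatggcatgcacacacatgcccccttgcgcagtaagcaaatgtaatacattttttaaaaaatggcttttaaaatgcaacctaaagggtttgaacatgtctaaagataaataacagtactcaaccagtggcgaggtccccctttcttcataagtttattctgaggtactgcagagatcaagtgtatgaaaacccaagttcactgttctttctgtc
Ptcra (chr17:46763713-46763962, minus strand): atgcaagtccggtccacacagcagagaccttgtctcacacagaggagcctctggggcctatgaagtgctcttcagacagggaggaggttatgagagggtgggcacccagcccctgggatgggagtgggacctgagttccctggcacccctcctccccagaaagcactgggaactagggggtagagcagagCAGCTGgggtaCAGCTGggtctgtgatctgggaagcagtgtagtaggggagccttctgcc
The Rag1 window held CAGGTG and CAGCTG side by side and the ETS motif on the other strand, and the Ptcra window held CAGCTG at 2 places. Rag2, Dntt and Cd8a, the remaining gene with a single window, held none of these motifs, and no window of the 5 held the TCF and LEF motif CTTTGA. Over the 22862 genes with a single window, 12.7% held CAGCTG, 17.1% CAGGTG, 25.4% CAGGAA and 14.3% CTTTGA. The 3 genes that moved together thus shared no match to these motifs in these windows.

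Rag1, Rag2, Dntt and Arpp21 were read in both libraries of PBS-treated wild type mice and were at or close to 0 in most of the other 6. Rag1 (Entrez 19373, chromosome 2, 101638252 to 101649532), the catalytic subunit of the recombinase, had 189 and 371 counts in PBS-treated wild type mice. It had 1 and 0 counts in PBS-treated DDAH1-transgenic, 0 and 0 in HDM-treated wild type, and 7 and 0 in HDM-treated DDAH1-transgenic mice. The lowest PBS-treated wild type library thus lay far above the highest library of every other group. Counts were divided by the library size as scaled by edgeR's TMM method over all 8 libraries, which gives CPM, counts at a common depth. On this scale Rag1 stood at 24.6 ± 7.99 CPM (SD, n = 2 libraries) in the PBS-treated wild type group, from 19.0 and 30.3 CPM. From summed counts, this was 491-fold above PBS-treated DDAH1-transgenic mice (95% exact counting interval 87.8 to 19440, on 1 count) and 70.6-fold (34.0 to 176, on 7 counts) above HDM-treated DDAH1-transgenic mice. Against HDM-treated wild type mice it was at least 178-fold higher, with 3 counts over the group in place of 0. These intervals and bounds cover counting error only, because copies made during amplification were counted as separate reads.

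Rag2 (Entrez 19374), the partner of Rag1 in the recombinase, lies next to it on chromosome 2 (101624712 to 101632528). It had 62 and 57 counts in PBS-treated wild type, 2 and 3 in PBS-treated DDAH1-transgenic, 1 and 0 in HDM-treated wild type, and 0 and 1 in HDM-treated DDAH1-transgenic mice. The PBS-treated wild type libraries again stood apart, at 5.44 ± 1.11 CPM (SD, n = 2 libraries), and no library of another group passed 3 counts. The ratio to PBS-treated DDAH1-transgenic mice was 20.9 (8.70 to 65.5), and those to the HDM-treated groups were 113 (19.96 to 4514) for wild type and 105 (18.5 to 4182) for DDAH1-transgenic mice, each on 1 count. Rag2 overlaps the gene Iftap, and 4.77% of its stretches of 50 bases recur in transcripts of B230118H07Rik, so a few of these reads may not be its own.

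Dntt (Entrez 21673, chromosome 19, 41029275 to 41059525) had the fewest counts of the 10 genes in PBS-treated wild type mice, 30 and 23. It had 0 counts in both PBS-treated DDAH1-transgenic and both HDM-treated wild type libraries, and 5 and 0 in HDM-treated DDAH1-transgenic mice. PBS-treated wild type mice were at least 15.5-fold above PBS-treated DDAH1-transgenic and at least 16.8-fold above HDM-treated wild type mice, and 9.35-fold (3.77 to 30.0) above HDM-treated DDAH1-transgenic mice. No stretch of 50 bases of Dntt recurred in transcripts of another gene.

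Arpp21 (Entrez 74100, chromosome 9, 112065091 to 112236288), a cAMP-regulated phosphoprotein gene that is also expressed in brain and hosts the microRNA gene Mir128-2, had 193 and 105 counts in PBS-treated wild type mice. It had 1 and 0 counts in PBS-treated DDAH1-transgenic, 1 and 13 in HDM-treated wild type and 15 and 0 in HDM-treated DDAH1-transgenic mice. PBS-treated wild type libraries were the highest, and HDM-treated libraries of the same pool differed from each other by more than 10 counts. The ratio was 262 (46.6 to 10360, on 1 count) to PBS-treated DDAH1-transgenic, 20.3 (11.9 to 37.5) to HDM-treated wild type and 17.5 (10.5 to 31.7) to HDM-treated DDAH1-transgenic mice. The noncoding neighbour 2900079G21Rik shares 4.996% of the Arpp21 stretches.

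The few counts of Rag1, Dntt and Arpp21 in HDM-treated DDAH1-transgenic mice came from the same library. Replicate 1, with 5694928 counts, held all 7 counts of Rag1, all 5 of Dntt and all 15 of Arpp21, and replicate 2, with 11492478 counts, held none of them. A count of 0 in replicate 2 allows up to 3 counts, or 0.232 CPM, whereas replicate 1 stood at 1.048 CPM for Rag1, 0.749 for Dntt and 2.25 for Arpp21. Both libraries were made from the same pool of mice.

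Ptcra did not follow the other genes of the receptor-building step. Ptcra (Entrez 19208, chromosome 17, 46755663 to 46763712) had 41 and 38 counts in PBS-treated wild type, 27 and 23 in PBS-treated DDAH1-transgenic, 37 and 37 in HDM-treated wild type, and 8 and 38 in HDM-treated DDAH1-transgenic mice. It was read in every library, and HDM-treated wild type mice (3.51 ± 0.290 CPM, SD, n = 2 libraries) overlapped PBS-treated wild type mice (3.61 ± 0.720). The ratio of PBS-treated wild type to HDM-treated wild type mice was 1.02 (95% counting interval 0.731 to 1.42), to PBS-treated DDAH1-transgenic mice 1.39 (0.961 to 2.02) and to HDM-treated DDAH1-transgenic mice 1.52 (1.04 to 2.23).

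**Figure D1:**
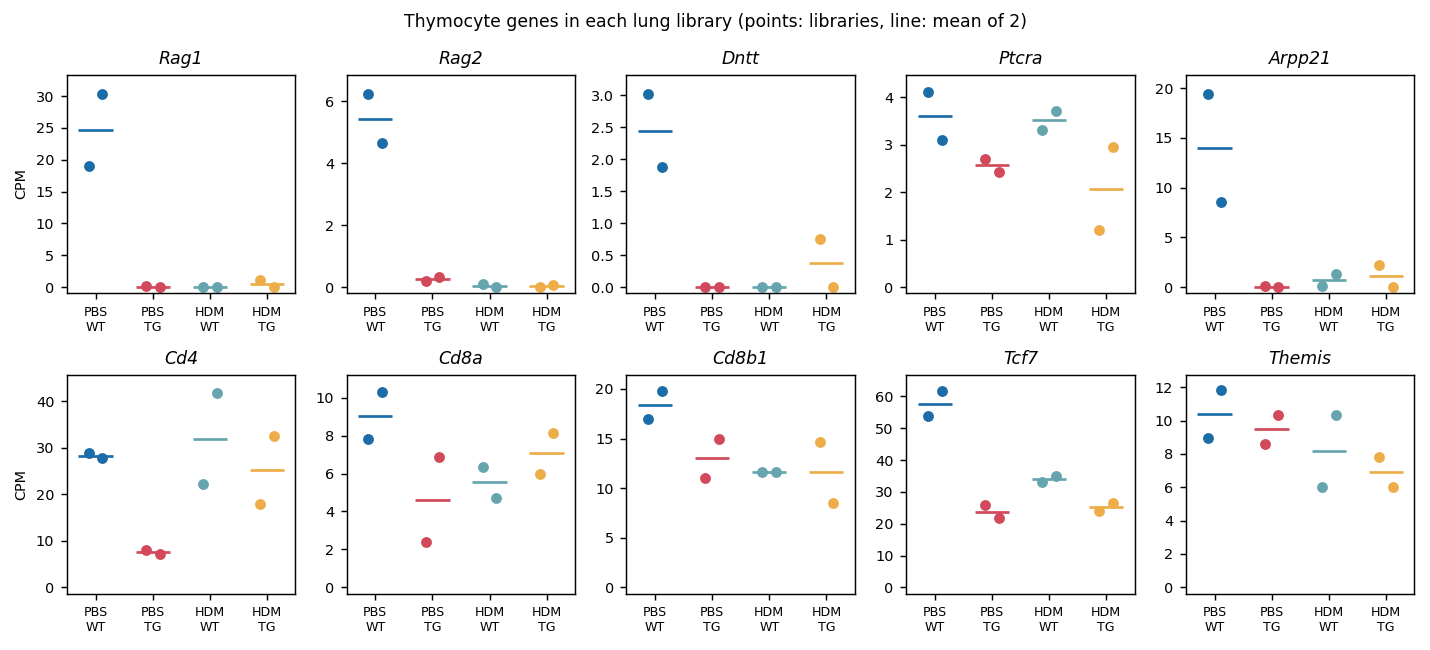
CPM (linear axes) of the 10 thymocyte genes in each of the 8 lung libraries, with a point per library and a line at the mean of the 2 libraries of a pool. Rag1, Rag2, Dntt and Arpp21 are high in PBS-treated wild type mice and at 2.25 CPM or less elsewhere, Ptcra and Themis are present in every group, and Cd4 is low in PBS-treated DDAH1-transgenic mice only.

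The genes that mature T cells share with thymocytes were present in all 8 libraries. Cd4 (Entrez 12504, chromosome 6, 124864693 to 124888247), the coreceptor of helper T cells, which is also made by some myeloid cells, had 28.8 and 27.7 CPM in PBS-treated wild type and 7.98 and 7.08 CPM in PBS-treated DDAH1-transgenic mice. It had 22.2 and 41.8 CPM in HDM-treated wild type and 17.8 and 32.5 CPM in HDM-treated DDAH1-transgenic mice. The PBS-treated DDAH1-transgenic libraries were the lowest and overlapped no other group, whereas the other 3 groups overlapped each other. PBS-treated wild type mice were 3.74-fold (3.12 to 4.51) above PBS-treated DDAH1-transgenic mice, but 0.899 times (0.805 to 1.01) HDM-treated wild type and 1.03 times (0.913 to 1.15) HDM-treated DDAH1-transgenic mice.

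Cd8a and Cd8b1 encode the chains of CD8, the coreceptor of cytotoxic T cells, and are neighbours on chromosome 6 (71373427 to 71379171 and 71322788 to 71337492). Cd8a had 7.84 and 10.3 CPM in PBS-treated wild type, 2.40 and 6.87 in PBS-treated DDAH1-transgenic, 6.34 and 4.72 in HDM-treated wild type and 5.99 and 8.13 in HDM-treated DDAH1-transgenic mice. Cd8b1 had 17.0 and 19.8 CPM in PBS-treated wild type, 10.98 and 15 in PBS-treated DDAH1-transgenic, 11.6 and 11.7 in HDM-treated wild type and 14.7 and 8.52 in HDM-treated DDAH1-transgenic mice. PBS-treated wild type mice were highest for both chains, but for Cd8a they overlapped HDM-treated DDAH1-transgenic mice. The ratios to the other groups ran from 1.24 to 2.01 for Cd8a and from 1.44 to 1.75 for Cd8b1. Of the Cd8b1 stretches, 6.28% recur in 53 other genes, so that its counts are less certain.

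Tcf7 (Entrez 21414, chromosome 11, 52246527 to 52283383), the transcription factor TCF-1 of early and naive T cells, had 53.7 and 61.6 CPM in PBS-treated wild type, 25.9 and 21.7 in PBS-treated DDAH1-transgenic, 33.0 and 35.1 in HDM-treated wild type and 24.0 and 26.5 in HDM-treated DDAH1-transgenic mice. PBS-treated wild type mice stood above all other libraries, by 2.43-fold (2.19 to 2.71), 1.71-fold (1.56 to 1.88) and 2.27-fold (2.04 to 2.52) in the same order of groups. Themis (Entrez 210757, chromosome 10, 28668360 to 28883820), a signalling protein of the selection step, had 8.94 and 11.8 CPM in PBS-treated wild type, 8.58 and 10.3 in PBS-treated DDAH1-transgenic, 5.99 and 10.3 in HDM-treated wild type and 7.79 and 6.04 in HDM-treated DDAH1-transgenic mice. Its PBS-treated wild type libraries overlapped those of PBS-treated DDAH1-transgenic mice, and also HDM-treated wild type ones.

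**Figure D2:**
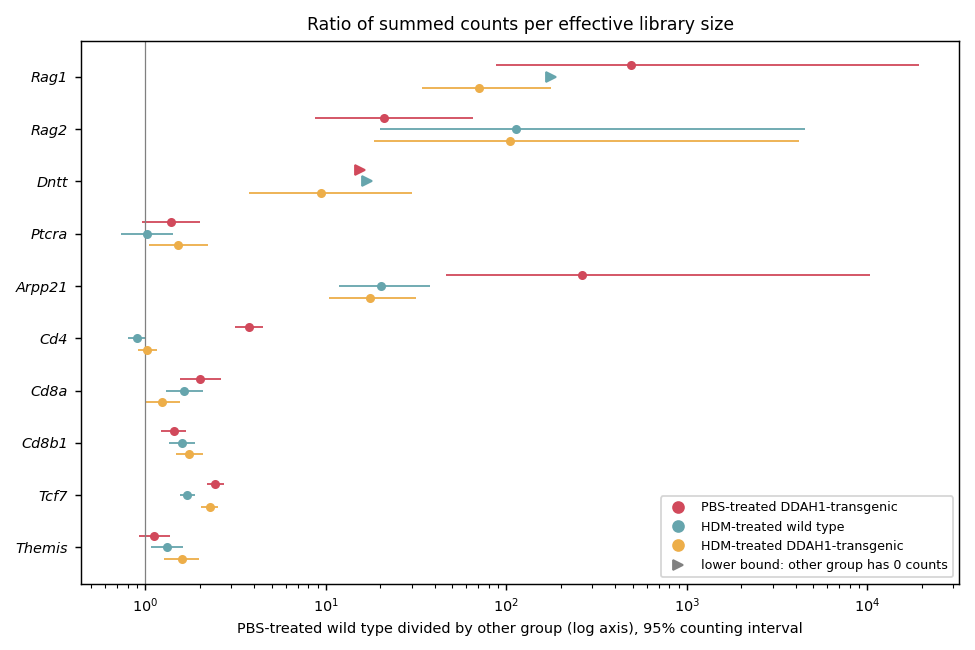
Ratio of PBS-treated wild type mice to each other group for the 10 genes (log axis), from summed counts per scaled library size, with 95% exact counting intervals as bars, and triangles for lower bounds where the other group had 0 counts. Rag1, Rag2, Dntt and Arpp21 lie between 9.35 and 491 and all other ratios between 0.899 and 3.74.

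Levels of different genes can be set side by side only per length. Per kilobase of coding sequence, PBS-treated wild type mice had 63.5 ± 6.13 CPM of Tcf7 (SD, n = 2 libraries), 28.8 ± 3.16 of Cd8b1, 20.6 ± 0.558 of Cd4 and 12.2 ± 2.34 of Cd8a. The recombinase genes were lower, at 7.90 ± 2.56 for Rag1 and 3.44 ± 0.705 for Rag2, and Dntt was lowest at 1.60 ± 0.525. Ptcra (5.84 ± 1.16), Arpp21 (5.78 ± 3.16) and Themis (5.45 ± 1.07) differed from each other by less than the spread between libraries. In HDM-treated wild type mice, Tcf7 (37.4 ± 1.62), Cd4 (23.3 ± 10.1) and Cd8b1 (18.2 ± 0.0382) again led, and Arpp21, Rag2, Rag1 and Dntt were at 0.288 or less. In bulk RNA, fewer cells of a type and less RNA per cell cannot be told apart.

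The difference between PBS-treated genotypes is the contrast known when the genes were picked. All 10 genes had a lower fitted level in DDAH1-transgenic mice, 9 of them without overlap between the groups, as did 20.4% of all 14926 genes tested, from which nothing is read because the genes were picked on these libraries. Themis overlapped. The fitted log2 fold changes ranged from -0.15 (standard error 0.47) for Themis, -0.50 (0.79) for Ptcra and -0.51 (0.38) for Cd8b1 over -0.98 (0.61) for Cd8a and -1.29 (0.26) for Tcf7 to -1.92 (0.37) for Cd4. Rag2, Arpp21 and Rag1 were lower still, with the ratios given above. The median of the 10 log2 fold changes was -1.60, the same with Dntt at its bound, beside 0.00079 over all genes. Leaving out a library moved Cd8a most among Cd8a, Cd8b1, Cd4 and Tcf7, to -0.40 without PBS-treated DDAH1-transgenic replicate 1 and to -1.91 without its replicate 2. Themis turned to 0.07 without PBS-treated wild type replicate 2.

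The genotypes after HDM are a comparison on libraries that the contrast above does not include, and it was tested. Of the 10 genes, 7 passed the low-count filter, and Rag1, Rag2 and Dntt were too low to be tested. None of the 7 was called, at an adjusted p under 0.05, by the quasi-likelihood test of edgeR after Benjamini-Hochberg adjustment, none had an unadjusted p under 0.05, and DESeq2 called none, while 1.84% of all 15191 genes were called higher and 0.599% lower in the libraries labelled DDAH1-transgenic. The median log2 fold change of the 7 genes was -0.20, beside 0.01 over all genes, and it turned to 0.20 without HDM-treated wild type replicate 2.

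Tcf7 had the lowest p of the 7, at -0.39 on the log2 scale (standard error 0.32, Benjamini-Hochberg adjusted p = 0.598, edgeR quasi-likelihood test). Ptcra stood at -0.71 (0.99, adjusted p = 0.782, edgeR), and Tcf7 and Ptcra were the genes of the 7 that were lower in both libraries labelled DDAH1-transgenic, an arrangement seen in 25% of all genes tested. Cd4 stood at -0.30 (0.41, adjusted p = 0.771, edgeR) and Themis at -0.20 (0.60, adjusted p = 0.912, edgeR). Cd8a at 0.39 (0.64, adjusted p = 0.823, edgeR), Cd8b1 at 0.03 (0.50, adjusted p = 0.986, edgeR) and Arpp21 at 0.68 (1.90, adjusted p = 0.907, edgeR) were on the other side of 0. The direction of Arpp21, Cd4, Cd8b1 and Themis turned when a single library was left out. Without the filter, Rag1 (7 counts against 0), Rag2 (1 against 1) and Dntt (5 against 0) had adjusted p of 0.531, 0.999 and 0.613 by the same edgeR test.

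**Figure D3:**
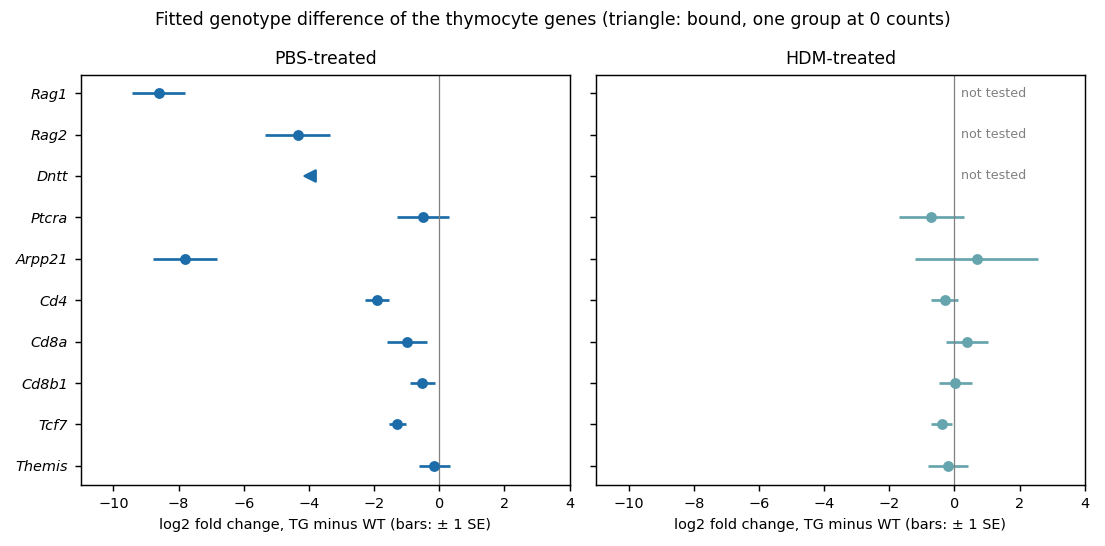
Fitted log2 fold change of each gene between DDAH1-transgenic and wild type mice after PBS (left) and HDM (right), with bars of 1 standard error. A triangle marks the bound for Dntt, which had 0 counts in PBS-treated DDAH1-transgenic mice. All points lie left of 0 after PBS, and the 7 genes tested after HDM lie between -0.71 and 0.68 with bars that cross or come near 0.

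HDM against PBS was described within each genotype, and no test of the 10 genes is given for it. It shares its PBS-treated libraries with the contrast known when the genes were picked. Calls of genes on the other lists, given further below, are description in every contrast. Those lists too were chosen with earlier results of these data known. In wild type mice, Rag1, Rag2, Dntt and Arpp21 were lower after HDM by the ratios given above, and they passed the low-count filter through the PBS-treated libraries. The log2 fold changes of the others were 0.17 (standard error 0.33) for Cd4, -0.04 (0.74) for Ptcra, -0.35 (0.50) for Themis, -0.66 (0.38) for Cd8b1, -0.71 (0.55) for Cd8a and -0.76 (0.24) for Tcf7. The median over the 10 genes was -0.74, the same with Rag1 and Dntt at their bounds, beside 0.02 over all genes. The sign of Cd4 turned, to -0.37, without HDM-treated wild type replicate 2, and that of Ptcra turned to 0.18 without PBS-treated and to 0.04 without HDM-treated wild type replicate 1.

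In DDAH1-transgenic mice, 6 of the 10 genes could be fitted, with a median of -0.02 beside 0.03 over all genes. Cd4 was higher in both HDM-treated libraries, with a log2 fold change of 1.76 (standard error 0.46). Those of Cd8a (0.63, standard error 0.73), Tcf7 (0.11, 0.35), Cd8b1 (-0.14, 0.50), Ptcra (-0.27, 1.03) and Themis (-0.43, 0.57) were smaller than Cd4's. Rag1, Rag2, Dntt and Arpp21 had at most 3 counts in each PBS-treated DDAH1-transgenic library.

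Genes of the thymic epithelium were read beside the thymocyte genes in PBS-treated wild type mice. Prss16, a serine protease of cortical epithelium (chromosome 13, 22002176 to 22009741), had 18 and 12 counts in PBS-treated wild type mice and 0 to 3 in each of the other 6 libraries. Ccl25 (chromosome 8, 4325205 to 4360020), the chemokine that calls precursors through CCR9, had 39 and 44 counts in PBS-treated wild type, 3 and 4 in PBS-treated DDAH1-transgenic, 1 and 5 in HDM-treated wild type and 16 and 11 in HDM-treated DDAH1-transgenic mice. Tbata (chromosome 10, 61171964 to 61188841), which is also expressed in testis and brain, had 32 and 65, 10 and 9, 0 and 0, and 1 and 16 counts in the same order. In these 3 genes both PBS-treated wild type libraries were above every other library.

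PBS-treated wild type mice were at least 8.78-fold above PBS-treated DDAH1-transgenic mice in Prss16, 10.4-fold (4.83 to 26.7) in Ccl25 and 4.48-fold (2.72 to 7.76) in Tbata. Aire, the regulator of self-antigens in medullary epithelium, had 7 counts in replicate 1 of PBS-treated wild type mice and 0 in all other libraries. Foxn1, the factor that defines the thymic epithelium, had 0 counts in every library but HDM-treated DDAH1-transgenic replicate 2, where it had 1. A count of 0 allows up to 3 counts, or 0.301 and 0.245 CPM in the PBS-treated wild type libraries. Psmb11, the thymoproteasome subunit, had 4242 and 4611 counts in PBS-treated wild type mice and 1435 to 3687 in the other libraries, so it did not follow the thymocyte genes. Its annotated transcript shares stretches of 50 bases with 594 other genes.

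**Figure D4:**
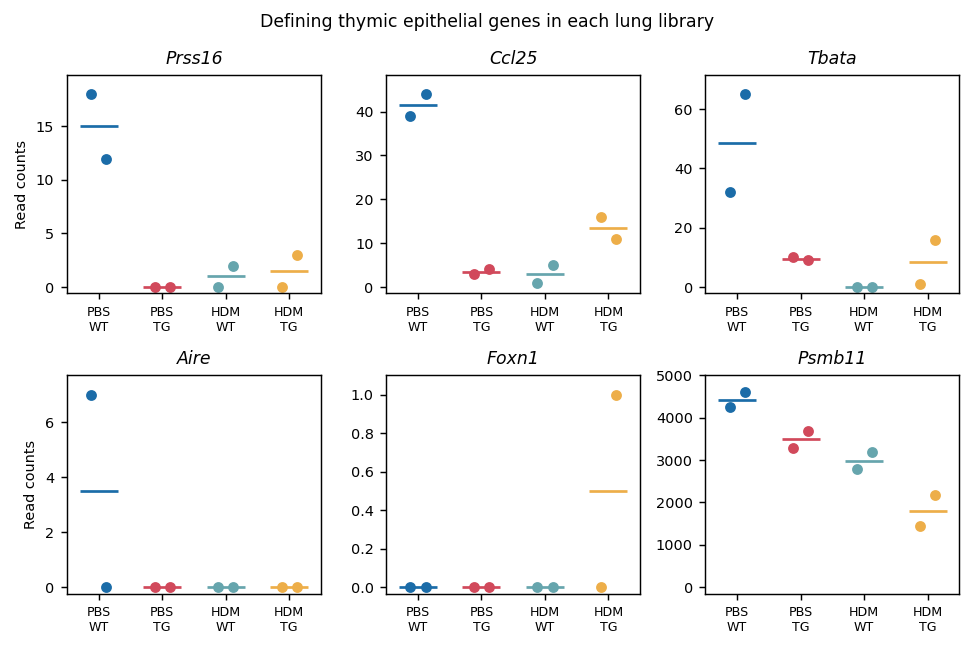
Read counts of 6 genes of the thymic epithelium in each library (linear axes), with a point per library and a line at the mean of the 2 libraries of a pool. Prss16, Ccl25 and Tbata are highest in both PBS-treated wild type libraries, Aire is read in 1 of them, Foxn1 in neither, and Psmb11 is read at over 1000 counts everywhere.

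Over the whole list of 16 thymic epithelial genes, 11 were tested between PBS-treated genotypes, 10 of them were lower in DDAH1-transgenic mice and none was called, with a median log2 fold change of -0.54. Of all genes tested between these groups, 0.375% were called lower and 0.281% higher in DDAH1-transgenic mice. The summed level was 584 to 626 CPM in PBS-treated wild type, 501 to 514 in PBS-treated DDAH1-transgenic, 520 to 634 in HDM-treated wild type and 554 to 648 in HDM-treated DDAH1-transgenic mice. Psmb11, whose counts are uncertain, made up 426 and 376 CPM of the sums in PBS-treated wild type mice. After HDM, Ctsl, a cathepsin that macrophages also make, was called higher in the libraries labelled DDAH1-transgenic, 1 of 11 tested. In wild type mice, Tbata was called lower after HDM and Pax9, Cd83 and Ctsl higher, 4 of 13 tested, where 2.3% of all 15123 genes tested were called lower and 4.44% higher. Tbata had 0 counts in both HDM-treated wild type libraries and passed the low-count filter through the PBS-treated ones, so nothing is read from its call.

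Other genes of immature thymocytes were lower about as often as higher. Of 24 such genes, 23 were tested between PBS-treated genotypes, with 12 lower, 11 higher, none called and a median log2 fold change of -0.08. Ccr9, the receptor of CCL25, had 5.53 and 12.2 CPM in PBS-treated wild type, 2.50 and 2.43 in PBS-treated DDAH1-transgenic, 1.97 and 3.92 in HDM-treated wild type and 3.74 and 4.57 in HDM-treated DDAH1-transgenic mice. Both PBS-treated wild type libraries were above all others in Ccr9. Satb1, a chromatin organizer of thymocytes, had 64.5 and 45.0 CPM in PBS-treated wild type, 23.2 and 24.6 in PBS-treated DDAH1-transgenic and 39.4 to 52.9 in the HDM-treated libraries. In Satb1, PBS-treated and HDM-treated wild type mice overlapped each other. Endou went the other way, as its PBS-treated wild type libraries, at 1.31 and 1.55 CPM, lay below all others (2.10 to 4.86 CPM). Between PBS-treated genotypes, 7 of the 24 genes were lower in DDAH1-transgenic mice without overlap, and 2 were higher. Of all 14926 genes tested, 20.4% were lower without overlap. Nothing is read from these counts, because the lists were chosen with this contrast known.

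Cd24a, Notch1, Notch3, Hes1 and Ets1, which many lung cells express, had at least 169 counts in each library. The list summed to 1256 to 1272 CPM in PBS-treated wild type and 1142 to 1278 in PBS-treated DDAH1-transgenic mice. Between the genotypes after HDM none of 23 genes was called, with a median of -0.08. In wild type mice, Ikzf3, Cd69 and Ly6d, which activated T cells or B cells also express, were called higher after HDM. These were 3 of 23 tested, beside 4.44% of all genes.

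The signalling chain of the T cell receptor, which thymocytes and mature T cells share, summed to 162 to 173 CPM over 18 genes in PBS-treated wild type mice. It came to 118 to 120 CPM in PBS-treated DDAH1-transgenic, 272 to 301 in HDM-treated wild type and 293 to 313 in HDM-treated DDAH1-transgenic mice. The highest levels were thus in both HDM-treated groups, where Rag1, Rag2 and Dntt had at most 7 counts and Arpp21 at most 15 in a library. Between PBS-treated genotypes 14 of 17 genes tested were lower, none was called, and the median was -0.54. Lck, the kinase bound to CD4 and CD8, had 70 and 67 counts in PBS-treated wild type, 22 and 14 in PBS-treated DDAH1-transgenic, 121 and 75 in HDM-treated wild type and 130 and 180 in HDM-treated DDAH1-transgenic mice. Between genotypes after HDM none of 18 was called (median 0.20). Lcp2 and Cd2 were called higher after HDM in wild type mice, 2 of 17 tested, beside 4.44% of all genes.

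Genes of mature T cells summed to 636 to 646 CPM in PBS-treated wild type and 618 to 681 in PBS-treated DDAH1-transgenic mice, 576 to 633 in HDM-treated wild type and 619 to 701 in HDM-treated DDAH1-transgenic mice. The median log2 fold change of the 15 tested between PBS-treated genotypes was -0.17. None of 16 was called between genotypes after HDM. S1pr1, an exit receptor of lymphocytes that endothelial cells also make, made up a large part of the sums. It had 369 and 359 CPM in PBS-treated and 228 and 226 in HDM-treated wild type mice. In DDAH1-transgenic mice it had 417 and 435 CPM after PBS and 233 and 258 after HDM. From PBS to HDM in wild type mice, 13 of 16 genes had a higher fitted level and 3 a lower one (median 0.87). Ctla4, an inhibitory receptor of activated T cells, was called higher there and S1pr1 lower, beside 4.44% and 2.3% of all genes.

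Early B cells also use Rag1, Rag2 and Dntt. Vpreb1, Vpreb2 and Igll1, the surrogate light chain genes that define them, were near 0 in PBS-treated wild type mice, but Vpreb3 was not. Vpreb1 and Vpreb2 had 0 counts in both libraries, and Igll1 had 0 and 1. Vpreb3 had 10 and 91 counts there and 22 and 22 in PBS-treated DDAH1-transgenic mice. After HDM, it had 57 and 59 counts in wild type and 75 and 241 in DDAH1-transgenic mice. Vpreb1 was read in PBS-treated DDAH1-transgenic mice at 0 and 17 counts and in HDM-treated DDAH1-transgenic mice at 1 and 22, and the libraries with 17 and 22 counts had 0 counts of Rag1. Of the list of 11 genes, 8 were tested between PBS-treated genotypes with none called and a median of -0.83, and the list summed to 131 to 149 CPM in PBS-treated wild type, 90.1 to 91.1 in PBS-treated DDAH1-transgenic, 348 to 392 in HDM-treated wild type and 287 to 441 in HDM-treated DDAH1-transgenic mice. None of 8 was called between genotypes after HDM. After HDM in wild type mice, 5 of 8 tested were called higher, beside 4.44% of all genes. Pax5, Cd79a, Cd79b and Blnk, which mature B cells also express, were among these 5.

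Mature B cell and lymph node genes were measured because a lymph node next to the lung is another source of lymphocytes. They summed to 188 to 194 CPM in PBS-treated wild type, 134 to 145 in PBS-treated DDAH1-transgenic, 385 to 398 in HDM-treated wild type and 353 to 467 in HDM-treated DDAH1-transgenic mice. The lymph node genes of the list differed. Madcam1 had 0 counts in every library, and Glycam1 had 7 in PBS-treated wild type replicate 1, 2 in HDM-treated wild type replicate 1 and 0 elsewhere. The chemokine genes Ccl21a, Ccl19 and Cxcl13 were read in every library. In PBS-treated wild type mice Ccl21a had 626 and 767 counts, Ccl19 32 and 103, and Cxcl13 82 and 95. None of 9 genes tested was called between PBS-treated genotypes (median -0.81) and none of 10 after HDM. Ms4a1, Fcer2a, Cd22 and Cxcl13 were called higher after HDM in wild type mice, 4 of 10 tested, beside 4.44% of all genes.

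Genes of other chest tissues moved with the thymocyte genes in part. Adipocyte genes summed to 127 to 146 CPM in PBS-treated wild type, 54.4 to 71.9 in PBS-treated DDAH1-transgenic, 79.3 to 82.0 in HDM-treated wild type and 130 to 135 in HDM-treated DDAH1-transgenic mice. Of their 7 genes tested between PBS-treated genotypes, the contrast known when the lists were made, all were lower in DDAH1-transgenic mice (median -2.07). Adipoq, which encodes adiponectin, had 100 and 69 counts in PBS-treated wild type, 11 and 0 in PBS-treated DDAH1-transgenic, 43 and 22 in HDM-treated wild type and 18 and 174 in HDM-treated DDAH1-transgenic mice. HDM-treated DDAH1-transgenic replicate 2 thus had the highest count of Adipoq and 0 counts of Rag1. Fabp4 was called higher in the HDM-treated libraries labelled DDAH1-transgenic, 1 of 8 tested, beside 1.84% of all genes. Pck1 was called lower after HDM in wild type mice, 1 of 8 tested, beside 2.3% of all genes.

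Skeletal muscle genes were lowest in PBS-treated wild type mice, with 43.0 to 46.7 CPM there, 271 to 308 in PBS-treated DDAH1-transgenic, 296 to 308 in HDM-treated wild type and 173 to 201 in HDM-treated DDAH1-transgenic mice. Between PBS-treated genotypes, the contrast known when the lists were made, all 10 had a higher fitted level in DDAH1-transgenic mice (median 5.41). None of 10 was called between genotypes after HDM. In wild type mice, all 10 had a higher fitted level after HDM, which again uses the PBS-treated wild type libraries. Proliferation genes, which dividing thymocytes express at high levels, summed to 154 to 173 CPM in PBS-treated wild type and 124 to 130 in PBS-treated DDAH1-transgenic mice, with none of 12 called. They came to 544 to 575 and 491 to 494 CPM in the wild type and DDAH1-transgenic mice given HDM, with none of 12 called between these. After HDM in wild type mice, 6 of 12 were called higher, beside 4.44% of all genes. The part of adipose, muscle or lymphoid tissue in the thymocyte gene levels was not tested.

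**Figure D5:**
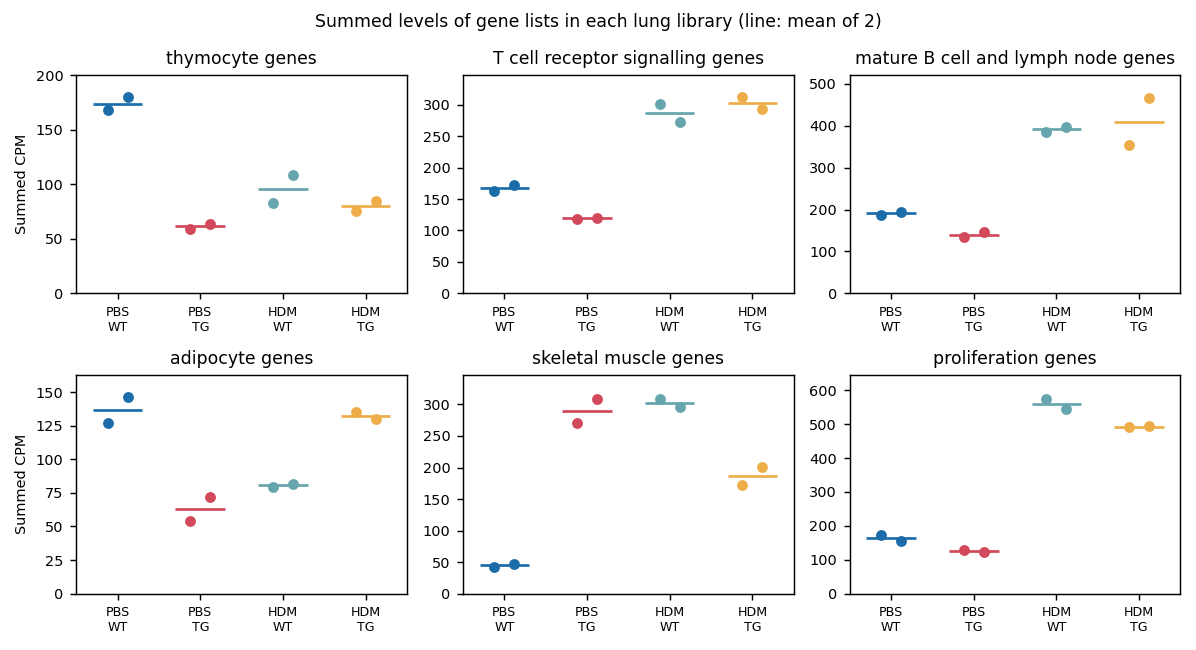
Summed CPM of 6 gene lists in each library (linear axes from 0), with a point per library and a line at the mean of the 2 libraries of a pool. The thymocyte genes are highest in PBS-treated wild type mice (168 to 180 CPM), while the T cell receptor, B cell and proliferation lists are highest in both HDM-treated groups and the muscle list is lowest in PBS-treated wild type mice.

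Genes were ranked by how closely their log2 CPM followed the mean of Rag1, Rag2, Dntt, Ptcra and Arpp21 across the 8 libraries. Of all genes, 2850 had at least 50 counts and a range of at least 3 on the log2 scale. The thymocyte genes among these were left out of the ranking. The 8 points share pools in pairs, and the order rests mainly on both PBS-treated wild type libraries. Pearson's r was 0.90 for Gad1, which makes the transmitter GABA, 0.89 for Ifitm6, 0.88 for Pck1, an enzyme of glucose and glycerol synthesis on the adipocyte list, and 0.88 for Arhgef37. Next came Ccl25 at 0.86, 1700119H24Rik at 0.84, Arsj at 0.84, the near-identical receptor genes Mrgpra2a and Mrgpra2b at 0.83 and 0.82, and Ngp, a granule protein of immature neutrophils, at 0.81.

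Gad1 had 20 and 42 counts in PBS-treated wild type mice and 0 to 3 in each of the other 6 libraries. Ccl25, the only gene of the 10 on the thymic epithelial list, had the counts given above. Among the thymocyte genes, r with this mean was 0.99 for Rag1, 0.96 for Dntt, 0.94 for Arpp21 and 0.91 for Rag2, which are part of it, and 0.86 for Tcf7 and 0.80 for Cd8b1, which are not. It was 0.49 for Cd8a, 0.48 for Themis and 0.34 for Cd4, and it was lowest for Ptcra, at 0.25, although Ptcra is part of the mean.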

How the data were processed

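The authors amplified the pooled lung RNA, aligned the reads by TopHat to mm10 (GRCm38), and counted those that fell in coding sequence, gene by gene, in R with ShortRead and their own programs. Per the labels, CASAVA 1.8, bcl2fastq and DESeq were also used, and the version of the gene annotation is not given in the sources used here. The deposited values are raw counts for 23469 genes, and all 8 columns were used, with groups and replicates from the titles. Symbols and positions came from RefSeq for GRCm38.p6 (23372 identifiers), and lengths from GENCODE M21 transcripts of 21146 genes, in which each stretch of 50 bases was searched for other genes. The libraries' sequencing batches are not given in the sources used here.

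For each comparison, its 4 libraries were fitted alone by the quasi-likelihood test of edgeR (4.0.16, R 4.3.3), with TMM scaling, filterByExpr with a count minimum of 10, Benjamini-Hochberg adjustment over all genes tested and a threshold of 0.05. The standard error is the log2 fold change divided by the square root of F. Log2 CPM had a prior count of 2. Ratios are of summed counts per scaled library size, with exact 95% intervals, and a group at 0 was set at 3 counts. The fit was tested on simulated data for the PBS-treated genotypes, with 15047 genes tested. All genes were given the same fixed spread between libraries, and changes were placed only in well-counted genes. There it called 78% of the 2-fold changes. The real libraries need not have that spread, so this share gives no power for the 10 genes. Alternatives were median-ratio size factors, DESeq2 1.42.0, no low-count filter, a replicate block, library sizes without Rn45S and haemoglobin genes, all 8 libraries in one fit, an offset for gene length (loess, span 0.5), and leaving out each library.

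The genes named are the 10 thymocyte genes, genes of 9 lists (other immature thymocyte, T cell receptor signalling, mature T cell, thymic epithelial, early B cell, mature B cell and lymph node, adipocyte, skeletal muscle and proliferation genes), Ddah1, Rn45S, Xist and Ddx3y, and the 10 genes most like the mean of Rag1, Rag2, Dntt, Ptcra and Arpp21. The thymocyte genes and lists were chosen with earlier results of these data known. The text names some of the list genes that were called, those that define a cell type, and examples chosen after their values were seen. The results of some genes of these lists are not reported here.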

Additional observations from a re-analysis of the deposited data

How the results depend on the processing

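No thymocyte gene was called between the genotypes after HDM under any alternative tried, but the direction of small values was not stable. Their median log2 fold change there, -0.203, ran from -0.456 to 0.201 when each library was left out, the highest without HDM-treated wild type replicate 2. By single gene, leaving out a library gave -0.229 to 3.497 for Arpp21, -0.792 to 0.229 for Cd4, -0.429 to 0.385 for Cd8b1 and -0.565 to 0.251 for Themis. With the replicate block, Arpp21 turned to -0.0544 and Cd8b1 to -0.0189, and Cd8b1 also turned to -0.0144 with all 8 libraries in one fit and to -0.224 with the offset for gene length. The median for HDM against PBS in DDAH1-transgenic mice, -0.018, was -0.317 with the offset for gene length and ran from -0.0767 to 0.177 when each library was left out, with 0.0374 without PBS-treated DDAH1-transgenic replicate 2 and 0.110 without HDM-treated DDAH1-transgenic replicate 2. The cause was not tested.

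Replicate numbers did not pair the libraries, since the deviations of libraries with the same number correlated at -0.021 to 0.017 over 15868 genes. The replicate block left the median after PBS at -1.60 and moved the genes called between PBS-treated genotypes from 98 to 46 and those after HDM from 370 to 625. No filter gave 306 and 1055 genes, DESeq2 223 and 890, all 8 libraries 771 after HDM, and the length offset 123 after PBS (66 higher and 57 lower, against 42 and 56) and 165 after HDM (85 and 80, against 279 and 91). Leaving out a library gave 75 to 432 genes after PBS, the most without DDAH1-transgenic replicate 1, and 6 to 1595 after HDM, the fewest without wild type replicate 1 and the most without DDAH1-transgenic replicate 2. For HDM against PBS in wild type mice, 1020 genes were called, 1588 without the filter and 652 to 1661 with a library left out. Depth limits Rag1, Rag2 and Dntt outside PBS-treated wild type mice, where 3 counts amount to 0.232 to 0.449 CPM.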
